A study of Homo sapiens with 6 samples.

Results

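FCER1G, TYROBP and HCST, the adaptor chains through which activating immunoreceptors signal, were followed with 5 genes that act downstream of such adaptors (SYK, LAT, LAT2, LCP2 and PLCG2) and 2 myeloid genes of the class III MHC region (LST1 and AIF1). These 10 genes, of 19775 genes measured, were read by 32 of the 54613 probe sets, namely every probe set whose platform annotation gives one of their symbols and no other. No filter on low values was set, so all 32 are accounted for. They were selected on their difference between arrays labelled ERG-induced and arrays labelled non-induced. That same difference is given below as a description. Calls of these genes rest on a limma p from this same contrast, so a call or its loss is also a description only. The measurements came from 6 Affymetrix U133 Plus 2.0 arrays of K562 cells, a human erythroleukemia line, hybridized with total RNA. Every culture carried pTRE-ERG, an ERG3 construct under a doxycycline-responsive promoter, and belonged to 1 of 3 stable clones (CL4, CL9 and CL46) that the study had picked for potent ERG induction. Arrays labelled ERG-induced came from cells given 1 µg/ml doxycycline (DOX) daily for 8 days, and arrays labelled non-induced from the same clones without DOX, with 1 array for each clone and label. A figure legend of the study states 6 days of DOX for these arrays instead of 8. DOX was given to all cultures of one label and to none of the other, so ERG and DOX cannot be told apart as sources of a difference.

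An immunoreceptor tyrosine-based activation motif (ITAM) is a pair of tyrosines in the tail of an adaptor or receptor that SRC family kinases phosphorylate when the receptor is engaged. The phosphorylated motif recruits SYK or ZAP70, which in turn phosphorylate the scaffolds LAT, LAT2 and LCP2 and so bring phospholipase C gamma to the membrane, where it raises calcium. FCER1G and TYROBP are typical of myeloid, mast and NK cells, and in platelets FCER1G carries the signal of the collagen receptor GP6.

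The deposited values are linear ratios to the median of a probe set over the 6 arrays, so a ratio of 1 is that median, and the level of one probe set cannot be set against that of another. For the same reason neither the brightness of a probe set nor its signal over background is known, and the erythroid identity of the cells could not be checked from marker levels. A gene was taken as the mean log2 ratio of its probe sets, and was called changed at a difference of at least 2-fold with p under 0.05. The study used these limits without saying whether its p was adjusted, and the p behind the calls here is the unadjusted one from limma. At an adjusted p under 0.05 limma called 0 of 19775 genes, with a lowest adjusted p of 0.101, whereas 2544 genes had an unadjusted p under 0.05. ERG itself was not higher on the arrays labelled ERG-induced: its mean over 4 probe sets differed by a log2 value of -1.35 in CL4, -0.80 in CL9 and -0.14 in CL46 (mean -0.76, SE 0.63, limma adjusted p = 0.671). Single probe sets of ERG did not agree, at -1.35, -1.93, -0.50 and, for 1 of the 4, 0.72, and whether they match the introduced construct was not determined. The labels are therefore used below as labels. The 3 ribosomal RNA control probe sets that were read, those named AFFX-HUMRGE, were higher on the arrays labelled ERG-induced. Their log2 differences were 1.21 in CL4, 0.59 in CL9 and 0.82 in CL46 (mean 0.87 ± 0.32, SD, n = 3 clones). The exact two-sided permutation p was 0.1, the smallest that 3 against 3 arrays allow. Other control probe sets were not compared, so RNA quality was not assessed. The part of ribosomal RNA in the differences below was not tested. All the differences rest on 3 clones with 1 array per label each. Each SD given is the spread of the differences of the clones. Each SE is that of limma, from the spread of clones within a label, not paired by clone and with variances moderated over all genes. In bulk RNA, fewer cells with a transcript and less of that transcript per cell cannot be told apart.

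FCER1G had the largest mean difference of all 19775 genes between the arrays labelled ERG-induced and those labelled non-induced. It encodes the common gamma chain of Fc receptors, an ITAM adaptor of FcεRI, FcγRI, FcγRIII, FcαRI and GP6. The probe set 204232_at stood at 1.95, 2.04 and 2.39 in CL4, CL9 and CL46 on the arrays labelled ERG-induced, against 0.0323, 0.0509 and 0.0261 on the arrays labelled non-induced. The other probe set, 1554899_s_at, stood at 1.91, 1.93 and 2.58 on the arrays labelled ERG-induced, against 0.0860, 0.0101 and 0.0468 on the arrays labelled non-induced. In both, every array labelled ERG-induced lay far above every array labelled non-induced, and CL46 was the highest. The log2 difference of 204232_at was 5.91, 5.33 and 6.52 in CL4, CL9 and CL46, a 60.5-fold mean difference (SD 0.59 on the log2 scale, n = 3 clones). That of 1554899_s_at was 4.48, 7.58 and 5.78, a 61.6-fold mean difference (SD 1.56). The probe sets thus gave nearly the same mean and disagreed on which clone differed most, since 1554899_s_at varied over a log2 range of 3.09 among the non-induced arrays and 0.43 among the induced ones. They ranked 1 and 2 among the 54613 probe sets. As a gene, FCER1G was higher by 5.93 (SE 0.37), or 61.0-fold, and the value was 6.30, 5.67 and 5.82 without CL4, CL9 and CL46.

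TYROBP, also called DAP12, is the ITAM adaptor of TREM receptors and of activating NK cell receptors. Its single probe set, 204122_at, stood at 1.49, 2.31 and 1.66 in CL4, CL9 and CL46 on the arrays labelled ERG-induced, against 0.0682, 0.509 and 0.284 on the arrays labelled non-induced. The labels did not overlap, but the non-induced arrays spread over a log2 range of 2.90, with CL4 lowest. The clones differed by log2 values of 4.45 (CL4), 2.18 (CL9) and 2.55 (CL46), with a mean of 3.06 (SE 0.76), or 8.34-fold, which put TYROBP at rank 72 of the genes. Without CL4 the mean was 2.36. In the fit over probe sets, though not in that over genes, the call was lost without CL46, where the mean was 3.31.

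HCST, or DAP10, carries no ITAM but a YINM motif that binds PI3-kinase and GRB2, and pairs with the NK receptor NKG2D. Its probe set 223640_at stood at 2.0, 1.21 and 1.35 on the arrays labelled ERG-induced of CL4, CL9 and CL46, against 0.766, 0.787 and 0.704 on the arrays labelled non-induced. All induced arrays were above all non-induced ones, which differed among themselves by a log2 range of 0.16. The log2 difference was 1.38, 0.63 and 0.94, and its mean of 0.98 (SE 0.28), or 1.98-fold, fell just short of the fold of 2. In the fit over genes, though not in that over probe sets, it was called without CL9, at 1.16, and it stood at 0.78 without CL4.

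ERG is an ETS factor, and ETS factors bind DNA around a GGAA core. To place that core beside the values, the 250 bases before the annotated start of FCER1G and of TYROBP are shown. The sequences are from RefSeq (GRCh38.p14), read 5′ to 3′ along the gene, with GGAA and its reverse complement TTCC in capitals. The first lies at chr1:161215045-161215294 on the plus strand and the second at chr19:35908296-35908545 on the minus strand.
FCER1G: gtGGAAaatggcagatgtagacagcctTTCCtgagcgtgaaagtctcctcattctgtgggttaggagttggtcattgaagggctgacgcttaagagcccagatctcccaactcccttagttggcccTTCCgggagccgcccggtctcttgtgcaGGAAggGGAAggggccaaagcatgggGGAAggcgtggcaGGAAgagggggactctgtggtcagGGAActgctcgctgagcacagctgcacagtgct
TYROBP: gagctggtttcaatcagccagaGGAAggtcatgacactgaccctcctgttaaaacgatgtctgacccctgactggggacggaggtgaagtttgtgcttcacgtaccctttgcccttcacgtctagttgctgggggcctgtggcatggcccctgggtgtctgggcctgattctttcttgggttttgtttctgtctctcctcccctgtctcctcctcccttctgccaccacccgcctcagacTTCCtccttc
The window of FCER1G held 8 matches, which 1.70% of the 35116 promoters in the table reach, and 5 matches to GGAAG on either strand, which 1.24% reach. That of TYROBP held 2 matches to GGAA, which 76.5% reach, and that of HCST 3, which 55.1% reach. A match is a description of the letters and does not show binding.

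**Figure D1:**
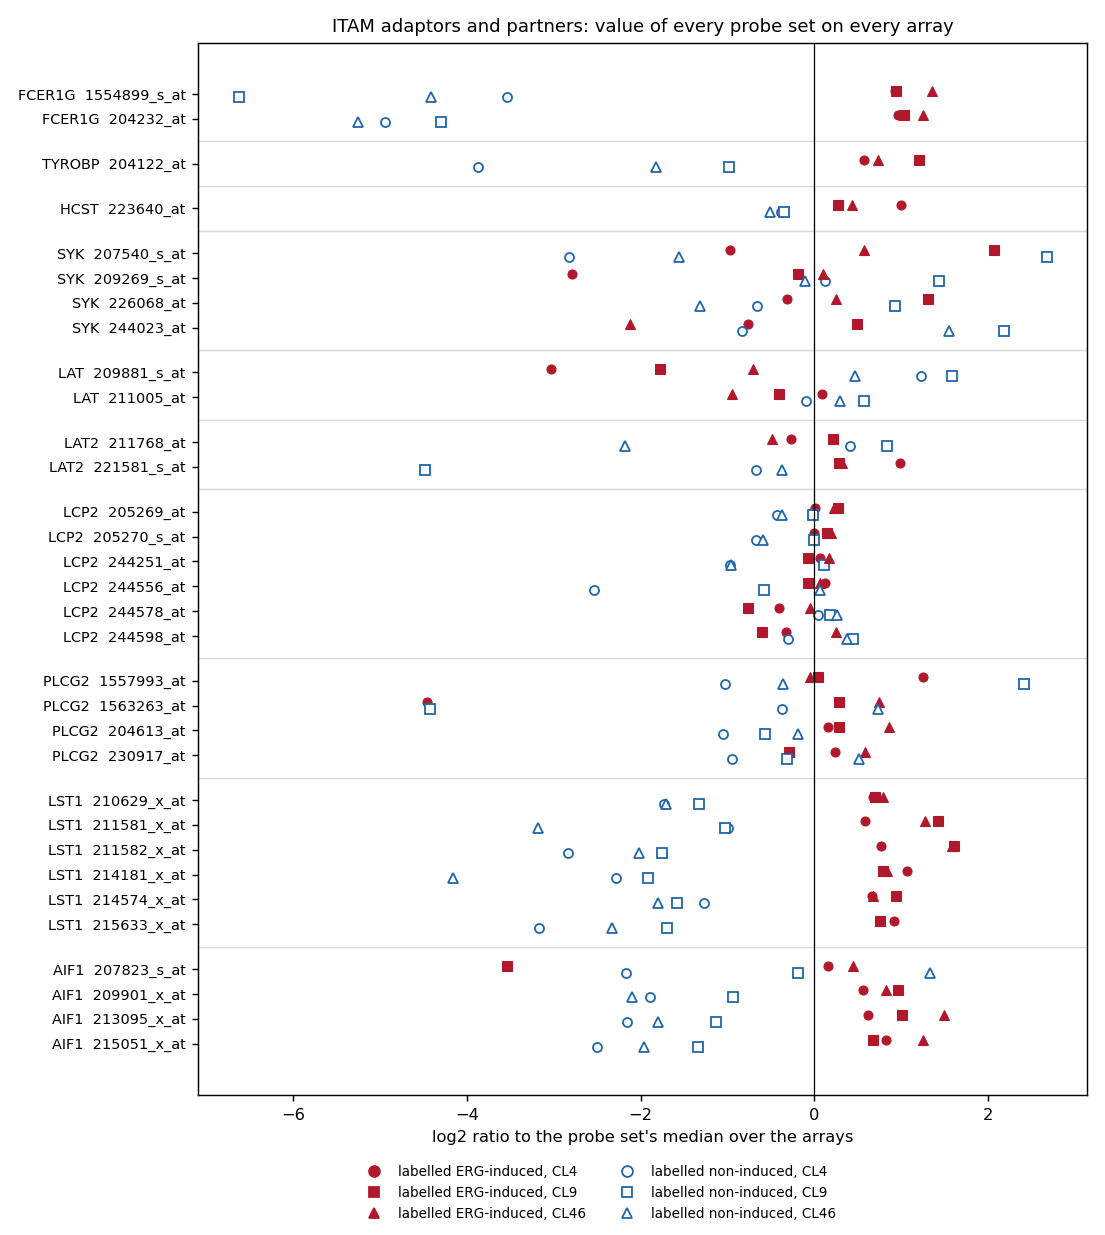
Log2 ratio to the median of the 6 arrays (horizontal axis) for each of the 32 probe sets of the 10 genes (rows), with filled symbols for the arrays labelled ERG-induced, open symbols for the arrays labelled non-induced, and a shape for each clone. Filled and open symbols are far apart in FCER1G, TYROBP, all 6 probe sets of LST1 and 3 of the 4 of AIF1. They run the other way in 1 probe set of LAT (209881_s_at) and, less far apart, in 1 of LCP2 (244578_at). They mix in all 4 of SYK and in some probe sets of LAT, LAT2, LCP2, PLCG2 and AIF1.

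SYK, the kinase that docks on phosphorylated ITAMs, showed no common direction. Its 4 probe sets had mean log2 differences between -1.77 and 1.13, and the labels overlapped in each. The probe set 226068_at stood at 0.809, 2.48 and 1.19 in CL4, CL9 and CL46 on the arrays labelled ERG-induced, against 0.633, 1.91 and 0.401 on the arrays labelled non-induced. By contrast, 244023_at stood at 0.592, 1.41 and 0.229 on the arrays labelled ERG-induced, against 0.564, 4.55 and 2.93 on the arrays labelled non-induced. Clones also differed within a label, as CL9 was the highest of its label on both sides in 3 of the 4 probe sets. The largest ratio of SYK, 6.43 in 207540_s_at, was that of non-induced CL9, where the induced array of the clone stood at 4.22. The gene mean differed by -0.33 (SE 0.90), with values of -0.16, -0.89 and 0.06 in CL4, CL9 and CL46.

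LAT, the membrane scaffold that ZAP70 phosphorylates in T cells and SYK in mast cells and platelets, was the only one of the 10 genes called lower. The probe set 209881_s_at stood at 0.122, 0.292 and 0.615 in CL4, CL9 and CL46 on the arrays labelled ERG-induced, against 2.35, 3.02 and 1.39 on the arrays labelled non-induced. The labels did not overlap, and the log2 difference was -4.27, -3.37 and -1.17, largest in CL4 and smallest in CL46. The second probe set, 211005_at, stood at 1.06, 0.756 and 0.519 on the arrays labelled ERG-induced, against 0.937, 1.49 and 1.23 on the arrays labelled non-induced. Here the labels overlapped, since CL4 differed by 0.18, CL9 by -0.98 and CL46 by -1.24. The gene mean was lower by 1.81 on the log2 scale (SE 0.32), or 3.50-fold. It was called lower with any one clone left out (-1.69, -1.62 and -2.11 without CL4, CL9 and CL46), while 209881_s_at by itself was no longer called without CL9, at -2.72. Of the 2 annotated starts of LAT, the upstream window lies at chr16:28984553-28984802 on the plus strand of GRCh38.p14 and is shown, from RefSeq and with GGAA and TTCC in capitals as above, because LAT differed in the opposite direction to FCER1G.
LAT: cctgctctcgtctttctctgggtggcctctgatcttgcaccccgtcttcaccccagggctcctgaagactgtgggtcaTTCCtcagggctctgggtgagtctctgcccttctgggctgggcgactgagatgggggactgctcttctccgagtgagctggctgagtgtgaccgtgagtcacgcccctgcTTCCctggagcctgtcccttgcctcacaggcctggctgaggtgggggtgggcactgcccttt
It held 2 matches, as many as the window of TYROBP, and the window of the other start held 3.

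LAT2, or NTAL, is a related scaffold of B cells, mast cells and monocytes. The probe set 221581_s_at stood at 1.98, 1.23 and 1.25 in CL4, CL9 and CL46 on the arrays labelled ERG-induced, against 0.631, 0.0445 and 0.775 on the arrays labelled non-induced. The labels did not overlap, and the non-induced array of CL9 lay far below the other non-induced arrays, which gave log2 differences of 1.65, 4.78 and 0.69. The other probe set, 211768_at, stood at 0.835, 1.16 and 0.716 on the arrays labelled ERG-induced, against 1.33, 1.79 and 0.221 on the arrays labelled non-induced. It was lower in CL4 and CL9 and higher in CL46, by -0.67, -0.62 and 1.70. Neither probe set was called, yet their mean was, at 1.25 (SE 0.48), or 2.39-fold. That call was lost without CL9 (0.84) and without CL46 (1.29).

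LCP2, or SLP-76, is the cytosolic scaffold that joins LAT to phospholipase C gamma and VAV. None of its 6 probe sets was called over all 3 clones, and their mean log2 differences ran between -0.57 and 1.06. The probe set 205269_at stood at 1.01, 1.21 and 1.17 on the arrays labelled ERG-induced of CL4, CL9 and CL46, against 0.743, 0.991 and 0.774 on the arrays labelled non-induced. Both it and 205270_s_at lay above in every induced array, by a mean of 0.44 (SD 0.16) and 0.53 (SD 0.34) on the log2 scale. In 244578_at the order was turned, with 0.754, 0.592 and 0.966 on the arrays labelled ERG-induced, against 1.03, 1.13 and 1.2 on the arrays labelled non-induced. Over all probe sets LCP2 differed by 0.29 (SE 0.31), with CL9 at -0.20, CL4 at 0.72 and CL46 at 0.35. Without CL9, 244251_at came to 1.08 and was called.

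PLCG2 is the phospholipase C gamma of B cells, mast cells, platelets and myeloid cells. The probe set 204613_at stood at 1.12, 1.22 and 1.81 in CL4, CL9 and CL46 on the arrays labelled ERG-induced, against 0.482, 0.677 and 0.881 on the arrays labelled non-induced. Every induced array was above every non-induced one, and the log2 differences of 1.22, 0.85 and 1.04 gave a 2.05-fold mean that was called. The call was lost with any one of the clones left out, at 0.95, 1.13 and 1.03 without CL4, CL9 and CL46. Its 3 other probe sets did not separate the labels. In 1563263_at CL4 differed by -4.10, CL9 by 4.71 and CL46 by 0.01 on the log2 scale (SD 4.41), as the induced array of CL4 and the non-induced array of CL9 stood near 0, at 0.0453 and 0.0466. The gene mean of PLCG2 differed by 0.44 (SE 0.46).

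LST1 and AIF1 belong to the class III MHC region of chromosome 6, where only NCR3 and UQCRHP1 lie between them in the RefSeq gene order. LST1 is a leukocyte transmembrane adaptor of the myeloid lineage. All its 6 probe sets separated the labels and all were called higher. The probe set 210629_x_at stood at 1.60, 1.62 and 1.74 in CL4, CL9 and CL46 on the arrays labelled ERG-induced, against 0.302, 0.399 and 0.306 on the arrays labelled non-induced. The evenest difference was that of 211582_x_at, at 1.70, 3.06 and 3.02 on the arrays labelled ERG-induced, against 0.141, 0.296 and 0.248 on the arrays labelled non-induced. Its log2 differences were 3.60, 3.37 and 3.61 (SD 0.13, n = 3 clones), or 11.5-fold. Over the 6 probe sets the mean log2 differences ran between 2.31 and 3.68, or between 4.97-fold and 12.9-fold. As a gene, LST1 was higher by 2.98 (SE 0.33), or 7.89-fold, with 2.83, 2.59 and 3.52 in CL4, CL9 and CL46. These probe sets all have the suffix _x_at, which the manufacturer gives to probe sets whose probes may also match other transcripts. They also target 1 gene, so they are not independent readings of it.

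AIF1, or IBA1, is a calcium-binding actin-bundling protein of macrophages and microglia. The probe set 215051_x_at stood at 1.77, 1.60 and 2.39 in CL4, CL9 and CL46 on the arrays labelled ERG-induced, against 0.177, 0.397 and 0.257 on the arrays labelled non-induced. That is a 7.22-fold mean difference without overlap, and 209901_x_at and 213095_x_at likewise separated the labels, at 5.37-fold and 6.67-fold. The fourth probe set, 207823_s_at, stood at 1.12, 0.0863 and 1.36 on the arrays labelled ERG-induced, against 0.223, 0.879 and 2.53 on the arrays labelled non-induced. It was higher in CL4 and lower in CL9 and CL46, with log2 differences of 2.33, -3.35 and -0.89. The gene mean over all 4 was 1.84 (SE 0.49), or 3.59-fold, with 2.72, 0.67 and 2.14 in CL4, CL9 and CL46. This call was lost without CL4 (1.41) and without CL46 (1.70). Left without its _x_at probe sets, AIF1 rested on 207823_s_at and differed by -0.64, whereas without 207823_s_at, a choice made after its values were seen, it differed by 2.67. The upstream one of its 2 annotated starts has the most GGAA matches among the 15 windows that RefSeq gave, which is why it is shown, again from RefSeq (GRCh38.p14, chr6:31614984-31615233, plus strand) with GGAA and TTCC in capitals.
AIF1: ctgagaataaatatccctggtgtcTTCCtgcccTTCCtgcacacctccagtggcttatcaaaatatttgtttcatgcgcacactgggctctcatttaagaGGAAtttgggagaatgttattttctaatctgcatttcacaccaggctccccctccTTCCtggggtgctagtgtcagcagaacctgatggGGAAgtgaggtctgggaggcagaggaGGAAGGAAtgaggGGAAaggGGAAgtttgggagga
It held 9 matches, which 0.655% of promoters reach, and the window of its downstream start held 6, which 9.14% reach. The 15 windows cover 9 of the 10 genes, and all 15 held at least 1 match, as did 92.7% of all promoters. The median was 4 matches over the 15 windows and 3 over all promoters. The window of LCP2 held 6 matches and that of PLCG2 held 5. Any part of these matches in the differences was not tested.

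**Figure D2:**
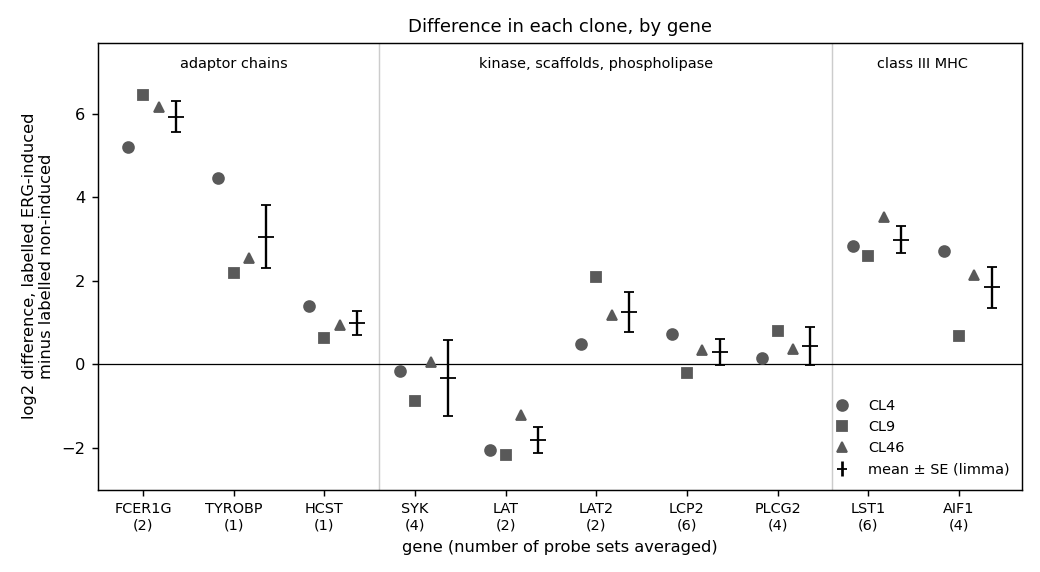
Log2 difference, arrays labelled ERG-induced minus arrays labelled non-induced (vertical axis), of the 10 genes in each clone (symbols). Bars give the mean over the 3 clones and its SE from limma, which is not paired by clone. FCER1G stands at 5.93, TYROBP at 3.06 and LST1 at 2.98, SYK, LCP2 and PLCG2 lie around 0, and LAT is at -1.81.

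Of the 10 genes, 5 were called higher (FCER1G, TYROBP, LAT2, LST1 and AIF1) and 1 lower (LAT), while 3.12% of all genes were called higher and 6.32% lower. In 6 of them all arrays labelled ERG-induced lay above all arrays labelled non-induced and in 1 below, which held for 7.98% and 13.6% of all genes. Of the 32 probe sets, 13 were called higher and 1 lower, against 2.82% and 8.16% of all probe sets, and the labels did not overlap in 17 above and 2 below, against 7.14% and 15.1%. The genes were chosen on this contrast, so these counts describe the choice. The median log2 difference was 1.12 over the 10 genes and -0.03 over all genes. Among the 13 probe sets called higher, 12 belonged to FCER1G, TYROBP, LST1 and AIF1 and the remaining one to PLCG2.

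Across the 6 arrays, the log2 ratio of FCER1G followed LST1 (r = 0.963), HCST (0.894), LAT2 (0.829), AIF1 (0.828) and TYROBP (0.804), and ran against LAT (-0.960). Its r was 0.421 with PLCG2, 0.390 with LCP2 and -0.243 with SYK. TYROBP followed AIF1 (0.901) and LST1 (0.881) more closely than FCER1G, and had an r of 0.794 with LCP2 and 0.369 with LAT2. These values share 6 arrays in 2 labels and mostly restate the difference between the labels, so they carry no test. Of all other genes, PRICKLE2 (r = 0.998), PTPRD-AS1 (0.996), CETP (0.994), SLC7A7 (0.993) and DLK1 (0.990) were most like FCER1G over the 6 arrays. CETP, the cholesteryl ester transfer protein, stood at 2.13, 1.91 and 2.44 on the arrays labelled ERG-induced of CL4, CL9 and CL46, against 0.0691, 0.0324 and 0.0853 on the arrays labelled non-induced. SLC7A7, a transporter of cationic amino acids, stood at 1.78, 2.08 and 3.16 on the arrays labelled ERG-induced, against 0.212, 0.138 and 0.217 on the arrays labelled non-induced. In both, CL46 had the highest induced ratio, as in each probe set of FCER1G, and CL9 had the lowest non-induced ratio, as in 1554899_s_at but not in 204232_at. PTPRD-AS1 and DLK1 likewise had CL46 highest among the induced arrays and CL9 lowest among the non-induced ones. In PRICKLE2 CL9 was also the lowest non-induced array, but CL46 had the lowest induced ratio, at 1.74 against 1.90 in CL4 and 1.91 in CL9. The likeness is of shape and not of size, since the log2 difference was 5.22 for CETP, 4.03 for PTPRD-AS1 and 0.63 for DLK1, which was not called. The genes most like TYROBP were CLBA1 (r = 0.996), TMEM120A (0.995), ASB13 (0.994), RPL23A (0.993) and FAU (0.993). None of these was called, and their log2 differences lay between 0.21 (RPL23A) and 0.51 (TMEM120A), so they shared the order of the arrays with TYROBP at a far smaller amplitude.

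Receptors that need these adaptors for surface expression or signalling were read next, beside calls of 3.12% higher and 6.32% lower over all genes. Of 14 measured receptors that pair with FCER1G, among them Fc receptors, GP6, OSCAR and members of the LILRA family, limma called 0, and 0 had an unadjusted p under 0.05 (median log2 difference 0.04). The smallest p belonged to LILRA4, a plasmacytoid dendritic cell receptor, at -1.28 (SE 0.55, adjusted p = 0.415), and to FCAR, the IgA receptor, at -0.82 (SE 0.38, adjusted p = 0.438). Of 8 measured receptors that pair with TYROBP or HCST, CLEC5A alone was called (median of the 8, 0.47). CLEC5A, a TYROBP-dependent lectin of monocytes and neutrophils, stood at 1.83, 1.17 and 2.08 in CL4, CL9 and CL46 on the arrays labelled ERG-induced, against 0.827, 0.133 and 0.13 on the arrays labelled non-induced. It did not overlap between labels, and was 6.79-fold higher (log2 2.76, SE 0.79, limma adjusted p = 0.277), with the call lost without CL9 (2.57) and without CL46 (2.14). Of 9 other ITAM and hemITAM proteins, none was called higher. CD3D, a chain of the T cell receptor complex, was called lower at -1.23 (SE 0.46, limma adjusted p = 0.354). This call was lost without CL9 (-1.08) and without CL46 (-1.21). It was also lost with each array centred on its median (-1.13), with quantile normalization (-1.01) and without variance moderation.

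The kinases that act on or beside ITAMs came next. Among 11 measured SRC and TEC family kinases and ZAP70, 7 were not called, 1 was called higher and 3 lower, beside 3.12% and 6.32% of all genes, with a median log2 difference of -0.54. YES1, a broadly expressed SRC family kinase, stood at 0.488, 0.284 and 0.408 in CL4, CL9 and CL46 on the arrays labelled ERG-induced, against 1.81, 1.95 and 1.76 on the arrays labelled non-induced. The labels were far apart and even within each label, and YES1 was lower by 2.26 (SE 0.29, limma adjusted p = 0.166), or 4.79-fold. FGR, the SRC family kinase of granulocytes and monocytes, stood at 1.00, 1.05 and 1.78 on the arrays labelled ERG-induced, against 0.0452, 0.0973 and 0.998 on the arrays labelled non-induced. The non-induced array of CL46 was near the induced ones, and FGR was higher by 2.91 (SE 1.15, limma adjusted p = 0.38). That call was lost without CL4 (2.13), without CL9 (2.65) and without variance moderation. The T cell kinases LCK and TXK differed by -1.36 (SE 0.52, adjusted p = 0.36) and -2.97 (SE 1.15, adjusted p = 0.368). Neither was called without CL9, at -1.01 and -2.72, without CL46, at -1.02 and -2.01, or without variance moderation. LCK stood at 0.01 in CL4 and was not called with the clone as a block. TXK was not called with each array centred on its median (-2.86) or with quantile normalization (-2.75).

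Downstream of the scaffolds, 40 effectors and adaptors were measured (median 0.07). Of these, 2 were called higher and 1 lower, beside 3.12% and 6.32% of all genes. FYB1, or ADAP, an adaptor that binds LCP2 and serves integrin activation, was higher by 1.33 (SE 0.31, limma adjusted p = 0.23), and the clones CL4, CL9 and CL46 gave 0.78, 1.18 and 2.02. Its call was lost without CL46 (0.98) and when the median of its 5 probe sets was taken (0.59). HCLS1, a cortactin-like substrate of SYK, was higher by 1.08 (SE 0.41, limma adjusted p = 0.365). It was not called with any one clone left out, at 1.24, 1.39 and 0.60 without CL4, CL9 and CL46. The call was also lost with the clone as a block and without variance moderation. RASGRP1, a RAS activator of T cells, stood at 0.713, 0.779 and 0.511 on the arrays labelled ERG-induced of CL4, CL9 and CL46, against 1.22, 1.83 and 2.08 on the arrays labelled non-induced. It was lower by 1.34 (SE 0.33, adjusted p = 0.235), and not called without CL46, at -1.01.

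Of 18 inhibitors of ITAM signalling, 2 were called higher and 0 lower (median 0.33). PECAM1, an adhesion receptor with inhibitory motifs, stood at 1.11, 1.90 and 2.47 in CL4, CL9 and CL46 on the arrays labelled ERG-induced, against 0.375, 0.381 and 0.563 on the arrays labelled non-induced. It was higher in all clones without overlap, by 2.0 (SE 0.39, limma adjusted p = 0.192), or 4.01-fold. UBASH3B, a phosphatase that acts on SYK, was higher by 1.15 (SE 0.34, adjusted p = 0.292), a call lost without CL4 (0.93), without CL46 (0.91), with the clone as a block and with the median of its probe sets (0.22). Over the 6 lists together, 100 of 115 listed genes were measured, 6 were called higher (6%) and 5 lower (5%), beside 3.12% and 6.32% of all genes, and their median was 0.12.

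**Figure D3:**
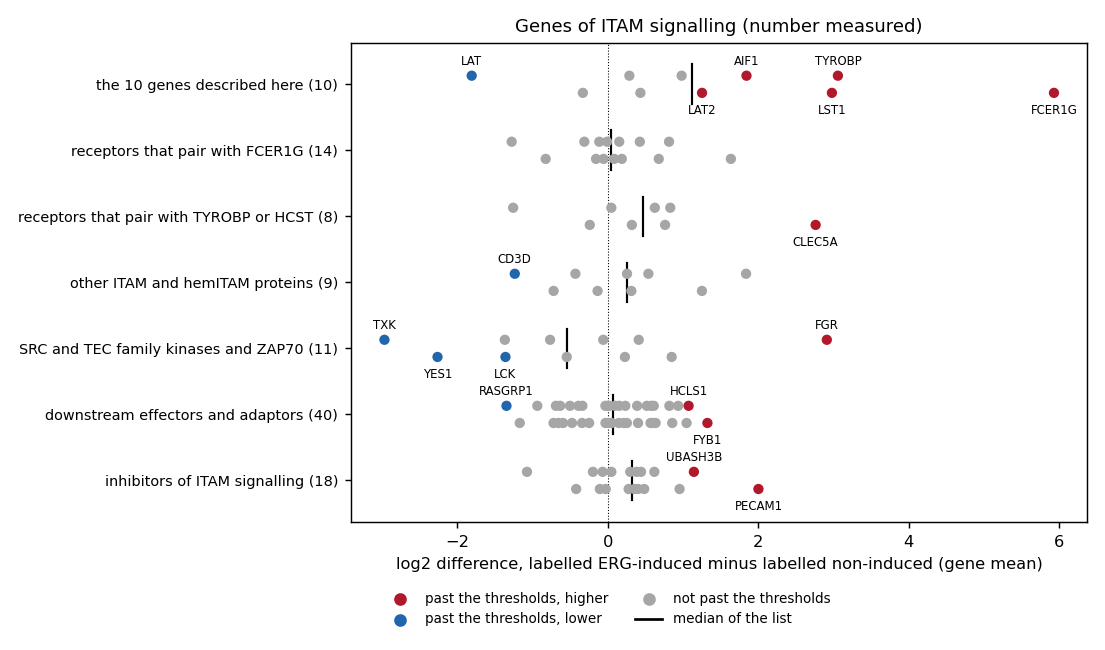
Log2 difference, arrays labelled ERG-induced minus arrays labelled non-induced (horizontal axis), of the 10 genes and of the 100 other measured genes of ITAM signalling by list (rows), with the median of each list as a bar. Red and blue points were called higher and lower and are named, and FCER1G at 5.93 lies beyond every other point, while the list medians outside the top row lie between -0.54 and 0.47.

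The genes next to the 10 in the genome were also read, since TYROBP and HCST lie side by side on chromosome 19 and LST1 and AIF1 lie close together on chromosome 6. Of 50 distinct genes within 3 places on either side in the RefSeq order, 22 were measured. Limma called 0 of the 22, beside 3.12% of all genes called higher and 6.32% called lower. Of all 19775 genes 2544 had an unadjusted limma p under 0.05, and so did 2 of the 22 (median log2 difference of the 22, 0.10). Those were LTB, the lymphotoxin beta gene beside LST1, at 0.90 (SE 0.34, adjusted p = 0.359), and CLIP2, near LAT2, at 0.87 (SE 0.27, adjusted p = 0.302). They are named here after their values were seen. NFKBID and LRFN3, which flank the HCST and TYROBP pair, differed by -0.10 (SE 0.51) and 0.07 (SE 0.49), and NCR3, between LST1 and AIF1, by 0.09 (SE 0.46).

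Genes that mark the blood cells in which these adaptors are usually found were read beside them. Of 17 measured monocyte and granulocyte markers 1 was called higher and 0 lower, with a median log2 difference of 0.30 and, by clone, of 0.01 in CL4, 0.17 in CL9 and 0.74 in CL46. Their mean log2 ratio per array ran between -0.08 and 0.51 on the arrays labelled ERG-induced and between -0.45 and -0.22 on the arrays labelled non-induced. CSF3R, the G-CSF receptor, was the one called, at 1.21, 1.85 and 1.76 in CL4, CL9 and CL46 on the arrays labelled ERG-induced, against 0.258, 0.459 and 0.401 on the arrays labelled non-induced. The labels did not overlap, and the mean difference was 2.13 (SE 0.34, limma adjusted p = 0.192). Of 10 megakaryocyte and platelet markers GP1BA, a subunit of the von Willebrand factor receptor, was called higher, at 2.38 (SE 0.49, adjusted p = 0.2). The list had a median of 0.61 and, by clone, of -0.10 in CL4, 0.07 in CL9 and 1.46 in CL46. Of 9 erythroid markers the transferrin receptor TFRC was called lower, at -1.67 (SE 0.32, adjusted p = 0.192), with a list median of 0.25. Among 13 T and NK cell markers CD28 was called higher at 2.28 (SE 0.61, adjusted p = 0.256) and TRBC1 lower at -2.94 (SE 0.86, adjusted p = 0.28), with a list median of -0.21. CD28 was not called without CL9 (1.62) or without its _x_at probe sets (1.29), and TRBC1 was not called without CL9 (-2.81) or CL46 (-2.78). Among 7 B cell markers PAX5 was called higher at 1.19 (SE 0.41, adjusted p = 0.33; list median 0.08), and among 8 mast cell and basophil markers CLC lower at -3.10 (SE 1.13, adjusted p = 0.348; list median 0.25). PAX5 was not called without CL4 (1.04) or CL46 (1.21), and CLC was not called without CL4 (-3.24), with the clone as a block or without variance moderation, and stood at -1.81 without CL46. In all, 64 of 78 markers were measured, and 4 were called higher and 3 lower, beside 3.12% and 6.32% of all genes. Whether a marker is expressed at all cannot be read from ratios to the median, and the part of other cell types in the differences of FCER1G, TYROBP, LST1 and AIF1 was not tested.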

How the data were processed

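RNA of 3 K562 pTRE-ERG clones, each with and without DOX, was hybridized by the authors to 6 arrays and processed with Gene Spring 4.2 per the methods of the study. The deposited values are linear ratios to the median of a probe set over the 6 arrays. That median came to 1 (tolerance 1e-05) for 50737 of the 54675 probe sets and was below 1 for the other 3938. The background correction and array scaling were not given in the sources read. The ratios hold no brightness, so signal over background is unknown, and the number of arrays limits the precision.

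Of 54613 probe sets left after 62 controls, 41091 carried 1 gene symbol in the platform annotation, 1801 several and 11721 none. Of the first, 41037 were matched by gene ID to RefSeq symbols of GRCh38.p14. The log2 of each ratio, with no floor, was averaged over the probe sets of a gene. The labels were compared with limma 3.58.1 (lmFit and eBayes) in R 4.3.3 with data.table version 1.17.8, two-sided, with Benjamini-Hochberg adjustment over the 19775 genes or over the 54613 probe sets, and the scripts were tested on simulated data. Calls used the limits of the study (at least 2-fold with p under 0.05), applied to the unadjusted p, since the study names no adjustment. Promoters were searched and figures drawn with Python 3.11.15, pandas 2.3.3 and matplotlib 3.10.9. GGAA and GGAAG were counted on both strands, overlaps included, and each GGAAG match also holds a GGAA match.

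The 10 genes and all lists were chosen with earlier results of these data known. Named were the 10 genes with all their probe sets, ERG, the called genes of each list (at most 4 with the smallest p, or 2 where none was called), called neighbours, and the 5 genes most correlated with FCER1G and with TYROBP over the 6 arrays. NFKBID, LRFN3 and NCR3 are named for their position, and LTB and CLIP2 after their values were seen. Same-clone arrays share a clone, and their deviations from the label means correlated by 0.04 in CL4, 0.05 in CL9 and 0.03 in CL46 across genes. Alternatives were the clone as a block, centred or quantile-normalized arrays, no variance moderation, other thresholds, the median over probe sets, _x_at probe sets or those with a median below 1 left out, and each clone left out in turn. Leaving out the discordant AIF1 probe set was added after the data were seen. Protein sequences were not used here.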

Additional observations from a re-analysis of the deposited data

How the results depend on the processing

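Among 100 values of the 10 genes under other settings, a called gene changed direction in 1 (AIF1 at -0.64 without _x_at probe sets). Many of these values could not change, so their number is no measure of stability. The clone as a block and the lack of moderation leave a difference as it is, and no probe set of the 10 genes had a median below 1. A change of direction was counted only for genes that were called in the main fit. At an adjusted p under 0.05, 0 genes and 0 probe sets were called in either direction, including 0 of the 10 genes, their probe sets and the other ITAM signalling genes; of the other settings, quantile normalization gave 4 genes at that level and the rest 0. Without variance moderation, 369 genes and 932 probe sets were called higher (617 and 1539 with it) and 2 ITAM signalling genes lower (5 with it), and LAT2 was not called. Without _x_at probe sets, LST1 had none left and was not measured. In that setting 3 of the 10 genes (FCER1G, TYROBP and LAT2) and 4 probe sets of the 10 genes were called higher. Centring each array put the median of all genes at 0.08 (-0.03 without it) and the share of calls that were lower at 57.2% (749 higher, 999 lower), and quantile normalization put them at 0.11 and 52.1% (848 higher, 923 lower), against 67.0% (617 and 1250); with either, HCST was called, and 3 ITAM signalling genes were lower when centred. Of the 22 neighbours, 1 was called when centred, 2 with quantile normalization and 2 at a fold of 1.5, at which 8 ITAM signalling genes were lower. With the clone as a replicate block, 661 genes were higher and 1264 lower, the 10 genes had the same calls, and LCK, HCLS1, UBASH3B and CLC were no longer called. Leaving out 1 clone gave 678 to 720 genes higher and 1005 to 1305 lower, and 1715 to 1807 probe sets higher and 3118 to 4183 lower. It left 3 to 5 of the 10 genes higher (3 without CL46) and 1 lower, 11 to 13 of their probe sets higher and 0 to 1 lower (0 without CL9), 3 to 7 ITAM signalling genes higher and 2 to 6 lower, and 0 to 2 neighbours called. The causes were not tested. Depth has no counterpart here: signal over background is unknown.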
